A study of Mus musculus with 2 samples.

Results

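The 46 genes described here encode nuclear receptors, and they were found by matching their symbols in GENCODE mouse release M21 to the Ensembl gene IDs of both count files, which hold 43629 IDs. All 46 were present, and those with 0 reads were kept. The 2 libraries, A and B, are of 1 group: Drosha knockout mouse embryonic stem (ES) cells of 129/Ola background, made with paired CRISPR/Cas9 cuts, at passage 7, untreated, in serum plus LIF. Drosha is the nuclease that starts the processing of most microRNAs, so both libraries share the loss of that gene, and no wild-type comparison is made here. The cell type label, blastocyst-derived ES cells, is given for A. The titles number the cells differently while the source names are the same, so A and B may be 2 lines or 1, and separate cultures are not stated.

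Nuclear receptors are transcription factors with a zinc finger DNA-binding domain and, in most members, a pocket for a small lipophilic ligand such as a steroid, a retinoid, a thyroid hormone or a fatty acid. Steroid receptors wait in a chaperone complex and bind DNA as homodimers, many lipid and vitamin receptors bind as heterodimers with a retinoid X receptor (Rxr), and orphan receptors act without a known natural ligand. In mouse ES cells, Esrrb, Nr5a2 and Nr0b1 are known as parts of the pluripotency network.

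Library A held 29264632 counts and library B 42322129, and a count of 0 allows a level of up to 0.102 (A) and 0.0711 (B) CPM, counts scaled by library size, which is that of 3 counts. These floors cover counting error only. Levels are given per length in TPM (transcript abundance on a scale with a fixed sum), from counts divided by the union of a gene's GENCODE exons, as mean ± SD of A and B (n = 2). Expressed here means that A and B each gave at least 1 CPM. The Drosha gene itself had 4865 reads in A and 7023 in B, 74.7 ± 0.488 TPM, and since the reads over the removed part were not analysed here, this level checks nothing. All 10 naive ES cell markers listed were expressed, with a median of 459.9 ± 15.5 TPM, and were led by Dppa5a, Pou5f1 and Zfp42 at 10136, 1399 and 892 TPM. Of 15 feeder fibroblast markers 7 were expressed, with a median of 0.920 TPM over the list. Their summed level was 1595 CPM in A and 1578 in B, of which Fn1 alone gave 1522 and 1511. The list was led by Fn1, Thy1 and Pdgfrb (346, 38.6 and 4.72 TPM), while Twist2 had 0 reads and Prrx1 had 2 in each library. Of 12 primitive endoderm markers 5 were expressed (summed 181 and 179.8 CPM), led by Lamb1, Col4a1 and Gata4 (39.8, 6.73 and 3.19 TPM). Of 12 neural markers 6 were expressed (summed 99.4 and 104 CPM), led by Otx2, Neurod1 and Nes (27.5, 15.2 and 11.1 TPM), with Dcx at 0 reads. In bulk RNA, a gene low in every cell and a gene high in few cells cannot be told apart. Whether such other cell types were present, and their part in the receptor levels, was not tested.

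Among the 46 receptor genes 23 were expressed (50%), beside 57.8% of the 21551 protein-coding genes in the files. The family's RNA was concentrated in 3 genes: Esrrb, Rarg and Nr0b1 together held 59.6% of the summed receptor TPM in A and 59.9% in B. The summed level was 1019 TPM in A and 983 in B. By size, 16 genes stood at 10 TPM or more, 7 between 1 and 10, and 23 under 1 TPM. The median of the 23 expressed receptors was 15.2 TPM, against 16.9 TPM for all expressed protein-coding genes. In the order of mean levels, of 22 neighbouring pairs among the expressed members, the ranges of A and B overlapped for 2, Rxrb with Rara and Ppard with Hnf4a.

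**Figure D1:**
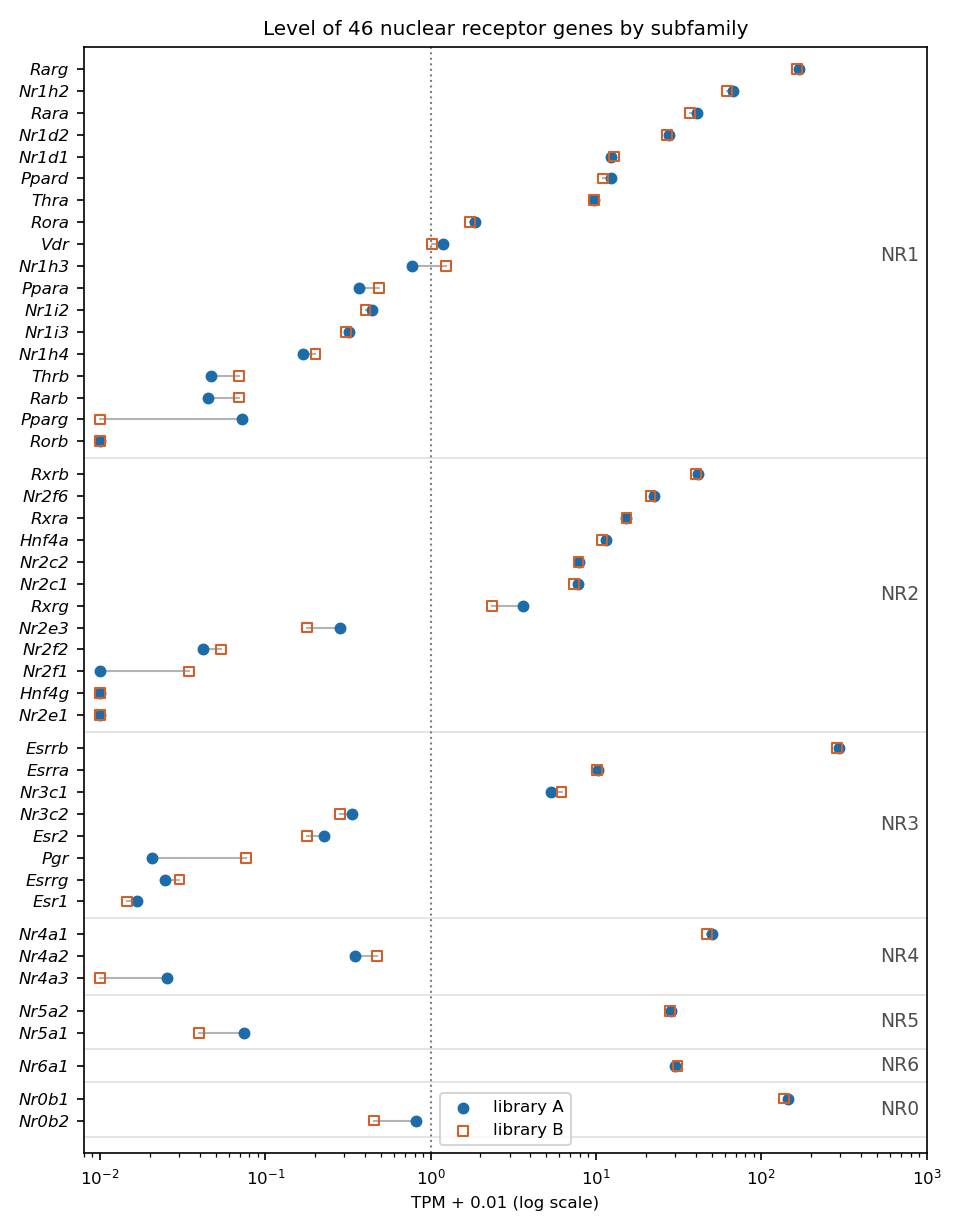
Level of each of the 46 nuclear receptor genes, in TPM plus 0.01 on a log axis, grouped by subfamily, with filled circles for library A and open squares for library B; the dotted line marks 1 TPM. Esrrb, Rarg and Nr0b1 lie above 100 TPM in both libraries. For genes above 1 TPM in both, the symbols of A and B nearly coincide, apart from those of Rxrg (3.59 and 2.35 TPM).

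The orphan receptors tied to pluripotency were among the most abundant. Esrrb, an estrogen-related receptor that sustains self-renewal in naive ES cells, gave 19370 reads in A and 27585 in B, that is 293 and 287 TPM. Its mean of 289.9 ± 4.68 TPM was the highest of the family, made up 29.0% of the summed receptor TPM, and stood at percentile 98.1 of the 17124 protein-coding genes with a read (gene at chr12:86361117-86521628, plus strand, GRCm38). Nr0b1 (Dax1), a receptor without a DNA-binding zinc finger domain that binds and represses other receptors, had 2872 and 3950 reads, or 145 and 137 TPM (chrX:86191764-86195947). Both genes were far above the family's median of 1.05 TPM.

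Nr5a2 (Lrh1), which binds DNA as a monomer and activates Pou5f1, was lower, at 28.3 TPM in A and 28.0 in B (chr1:136842571-136960448). Nr6a1 (Gcnf), the receptor that silences Pou5f1 when ES cells differentiate, was at 29.9 and 31.1 TPM (chr2:38723370-38927688). The means of the repressor Nr6a1 and the activator Nr5a2 were 30.5 ± 0.87 and 28.2 ± 0.222 TPM by exon union, with ranges that did not overlap, and 42.3 and 28.5 TPM by the longest transcript. Esrra, an estrogen-related receptor that drives mitochondrial genes, had 10.2 TPM in each library, and Esrrg, its relative of oxidative tissues, had 1 read in A and 2 in B. Within the estrogen-related group Esrrb thus held 96.6 ± 0.0335% of the TPM.

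Among the receptors for retinoic acid, the gamma gene led. Rarg had 7870 reads in A and 11211 in B, 169 and 165 TPM, the second highest level of the family (chr15:102234938-102257517). Rara had 40.6 and 36.9 TPM (chr11:98927818-98974942). Rarb, a known retinoic acid target gene, had 2 and 5 reads. Rarg held 81.2 ± 0.768% of the Rar TPM.

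Retinoid X receptors are the shared partners of the Rar, Ppar, Lxr, thyroid hormone and vitamin D receptors, and all 3 were expressed. Rxrb was the highest at 41.5 TPM in A and 40.1 in B (chr17:34031812-34038399). Rxra had 15.1 and 15.3 TPM (chr2:27676440-27762957). Rxrg, known from muscle and brain, had 90 and 86 reads, or 3.59 and 2.35 TPM. Summed, the Rxr genes came to 58.9 ± 1.78 TPM, and 14 genes whose products pair with them (Rar, Ppar, thyroid hormone, vitamin D, Lxr, Nr1h4, Nr1i2 and Nr1i3) came to 295.6 ± 10.04 TPM, with 6 of the 14 expressed. The sum of the partners was larger in both libraries, with Rarg making up most of it.

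Of the receptors that sense sterols and fatty acids, 1 member of each group carried nearly all of the RNA. Nr1h2 (Lxr beta), a receptor for oxysterols, had 2483 and 3309 reads, or 67.8 and 62.0 TPM, the fourth highest of the family (chr7:44549616-44553951). Its relative Nr1h3 (Lxr alpha) had 21 and 49 reads, 0.764 and 1.22 TPM, and was the 1 member above 1 CPM in B and not in A. Ppard, a fatty acid receptor, had 12.3 and 10.97 TPM by exon union (chr17:28232700-28301474), and by the length of its longest transcript its mean moved from 11.6 to 19.0 TPM. Ppara had 15 and 29 reads and Pparg, the fat cell receptor, 2 and 0. Hnf4a, known from liver, gut and yolk sac endoderm, had 607 and 839 reads, 11.5 and 10.9 TPM (chr2:163506808-163572910), while Hnf4g had 0 reads in both. Beside it, 5 of 12 primitive endoderm markers were expressed (above), and their part in the Hnf4a level was not tested.

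The hormone receptors were mostly low. Thra, the thyroid hormone receptor alpha gene, was at 9.76 TPM in A and 9.69 in B (chr11:98740638-98769006), and by its longest transcript at 14.8 TPM in place of 9.73. Nr3c1, the glucocorticoid receptor, was at 5.32 and 6.18 TPM, and Vdr, the vitamin D receptor, at 1.18 and 1.01 TPM from 73 and 91 reads. The 5 steroid receptor genes in the list (Nr3c1, Nr3c2, Esr1, Esr2 and Pgr) summed to 6.29 ± 0.570 TPM, nearly all of it from Nr3c1. Esr1, the estrogen receptor alpha gene, had 1 read in each library, Esr2 had 8 and 9, Pgr had 1 and 9, and the mineralocorticoid receptor gene Nr3c2 had 23 and 28. Thrb had 3 and 7 reads.

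The receptors of the circadian clock and those induced by acute signals were present as well. Nr1d2 (Rev-erb beta), a heme-binding repressor of clock genes, was at 27.6 TPM in A and 26.9 in B (chr14:18204054-18239127), and Nr1d1 (Rev-erb alpha) at 12.4 and 12.8 TPM (chr11:98767932-98775333). Rora, which activates the same clock elements, was at 1.83 and 1.72 TPM, and Rorb had 0 reads. Nr4a1 (Nur77), an immediate early gene, was at 50.4 and 46.8 TPM (chr15:101254269-101274795), against 15 and 30 reads for Nr4a2 and 1 and 0 for Nr4a3. Nr4a1 was the fifth highest receptor, while Nr4a2 was below 1 CPM and Nr4a3 within the level that a count of 0 allows.

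The remaining orphan receptors belong to the NR2 subfamily. Nr2f6, a Coup-tf relative, was at 22.5 TPM in A and 21.4 in B (chr8:71374123-71381960), while Nr2f1 had 0 and 2 reads and Nr2f2 had 3 and 6. Nr2c2 (Tr4) and Nr2c1 (Tr2), subunits of a repressor complex at globin genes, were at 7.84 and 7.82 TPM and at 7.75 and 7.35 TPM. The gap between them depends on the gene length: by the longest transcript, Nr2c2 had 12.4 TPM and 62.1% of the pair's TPM, in place of 50.9 ± 0.900%. Nr2e3, the photoreceptor gene, had 10 and 9 reads, and Nr2e1 (Tlx), the neural stem cell gene, had 0.

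The 23 genes not expressed had at most 70 reads over both libraries (Nr1h3). Hnf4g, Nr2e1 and Rorb had 0 reads, and 8 others had between 1 and 9 over both libraries: Rarb, Nr5a1, Nr2f2, Pparg, Esrrg, Nr2f1, Nr4a3 and Esr1. The other members of this low group not described above were the xenobiotic receptors Nr1i2 (12 and 16 reads) and Nr1i3 (15 and 21), the bile acid receptor Nr1h4 (4 and 7) and the repressor Nr0b2 (10 and 8). The median exon length was 4241 bases for it and 4614 bases for the expressed genes. By subfamily, 9 of 18 NR1, 7 of 12 NR2 and 3 of 8 NR3 genes were expressed, with summed levels of 337 ± 10.4, 108 ± 3.35 and 306 ± 4.17 TPM. NR4, NR5, NR6 and NR0 each had 1 expressed gene.

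In most sets of close relatives, 1 gene held nearly all of the RNA. Of 18 sets of paralogs, 15 had an expressed member, 10 had exactly 1, and 3 had all of theirs expressed (Rxr, Rev-erb and Nr2c). In 11 sets with an expressed member, the leading gene held over 90% of the set's TPM, among them Nr5a2 with 99.8%, Nr0b1 with 99.6%, Nr4a1 with 99.2% and Nr1h2 with 98.5%. The sets with more balanced levels were Rxr (Rxrb 69.2 ± 0.386%), Rev-erb (Nr1d2 68.4 ± 0.974%) and Nr2c. The SD of A and B in these shares was at most 1.09 percentage points, for Nr3c1 in its pair with Nr3c2.

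**Figure D2:**
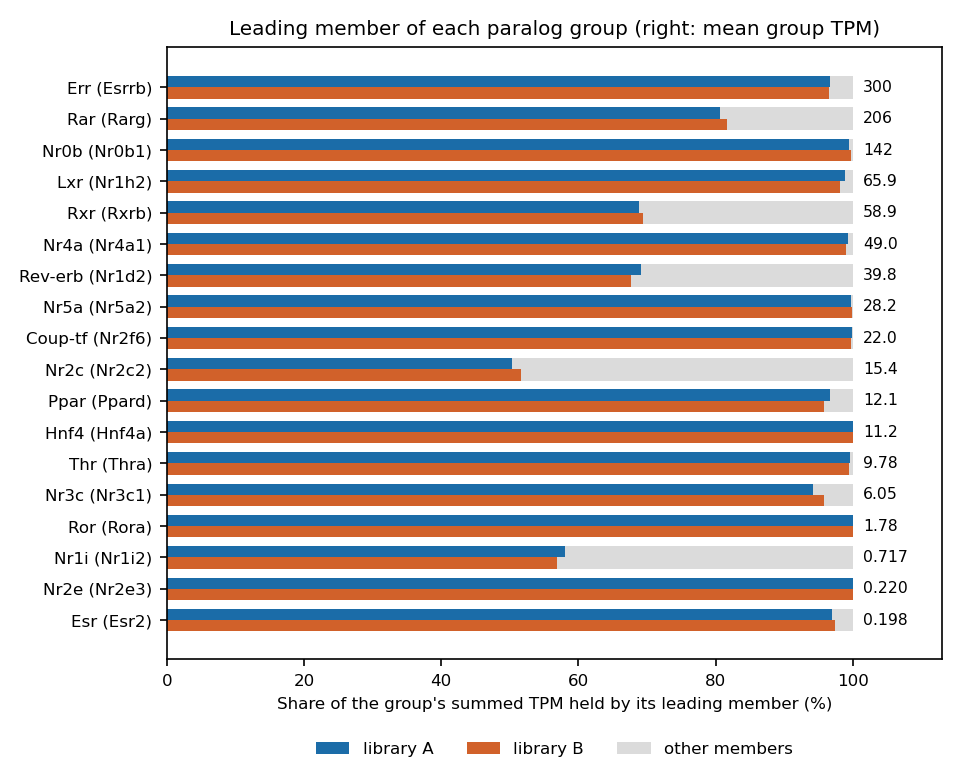
Share of each paralog group's summed TPM held by its leading member, in percent, for library A and library B, with the rest of the bar for the other members and the group's mean TPM at the right. Esrrb, Nr0b1, Nr4a1 and Nr5a2 hold over 95% of their groups, while Nr1d2, Rxrb and Nr2c2 hold between 50 and 70%.

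Exons of other genes overlap those of 13 members, and the sources used here do not say whether strand was used in counting, so reads of such pairs may not be told apart. The overlap was largest for Nr1i3, where 74.9% of the exon length lies opposite Tomm40l (773 and 1019 reads), for Nr2f6, with 54.4% opposite Ocel1 (138 and 193 reads), for Rarb, with 34.1% opposite Top2b, and for Nr2c2, with 30.7% opposite Mrps25 (1396 and 2040 reads). Nr1d1 and Thra share 263 exon bases on opposite strands. Esrrb, Rarg and Nr0b1 are not affected by a large overlap, while the levels of Nr2f6 and Nr2c2 are uncertain for this reason.

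Promoter sequences came from RefSeq on GRCm38.p6, which gave 63 windows for 42 of the 46 genes; Hnf4g, Nr3c1, Nr5a1 and Thra had none. The 250 bases before each start were searched on both strands for AGGTCA, the core element that many of these receptors bind, which was in 11 of the 63 windows (17.5%) and in 14.02% of all 32851 windows. The windows belong to 10 genes. The stretches of Nr0b1, Nr5a2, Nr1d2 and Rarg are shown as examples from the 7 expressed members with the element in a window (the others are Nr6a1, Rxra and Rxrg), picked as genes of the pluripotency network or leaders of their paralog group; the element, or its complement TGACCT, is in capitals.
Nr0b1 (chrX:86191629-86191674, plus strand): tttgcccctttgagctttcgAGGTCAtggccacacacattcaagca
Nr5a2 (chr1:136960487-136960532, minus strand): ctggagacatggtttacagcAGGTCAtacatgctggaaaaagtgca
Nr1d2 (chr14:18239158-18239203, minus strand): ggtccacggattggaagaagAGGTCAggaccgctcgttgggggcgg
Rarg (chr15:102257722-102257767, minus strand): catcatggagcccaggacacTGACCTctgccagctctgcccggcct

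The first 30 bases from the start that gives the Rarg window were not found whole in a GENCODE transcript. A start shifted by a few bases also fails this check. The RefSeq window runs past its start, spans chr15:102257473-102257772 and covers the first base of the GENCODE gene, 102257517. The longer form TCAAGGTCA, known as the Esrrb and Nr5a2 element, was in 0 of the 63 windows and in 0.387% of all windows. A match is a description of these letters, not a bound site.

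The cyclic AMP response element core TGACG (complement CGTCA) was in 13 of the 63 windows (20.6%), against 17.8% of all windows. The 3 Nr4a genes each had 4 matches, in windows that differ in expression: Nr4a1 was at 48.6 ± 2.57 TPM, Nr4a2 at 0.401 TPM and Nr4a3 at 0.00764 TPM. Only 45 of 32851 windows (0.137%) had 4 or more matches, and these 3 were the members among them, a count that was looked up after the matches were seen. This share was not matched for CpG count, and TGACG holds a CpG. The windows of Nr4a1, Nr4a2 and Nr4a3 had 34, 44 and 18 CpG, against a median of 6 over all windows. For each gene, the stretch with the most matches is shown to let the 3 relatives be compared, with the matches in capitals: 2 of 4 for Nr4a1 and 3 of 4 for Nr4a2 and for Nr4a3.
Nr4a1 (chr15:101266596-101266657, plus strand): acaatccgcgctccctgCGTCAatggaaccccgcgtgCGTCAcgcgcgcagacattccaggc
Nr4a2 (chr2:57124090-57124167, minus strand): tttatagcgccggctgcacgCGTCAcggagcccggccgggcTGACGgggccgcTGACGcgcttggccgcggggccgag
Nr4a3 (chr4:48045055-48045124, plus strand): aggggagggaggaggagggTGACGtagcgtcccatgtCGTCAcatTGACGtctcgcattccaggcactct

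The full element TGACGTCA was in 1 member window, that of Nr2e1, a gene with 0 reads, and in 1.55% of all windows. The element CACGTG of clock and Myc factors was in windows of 5 members (Esr2, Nr0b2, Nr1i3, Rara and Thrb) and in 6.02% of all windows; among them Rara was expressed. The CpG count of the gene's richest window had a median of 13 in 21 expressed members, with a range of 4 to 42. In 21 members not expressed it was 15, with a range of 1 to 44, and over all symbols the median was 6. The receptors expressed and those not expressed thus overlapped over nearly the whole range of CpG counts.

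**Figure D3:**
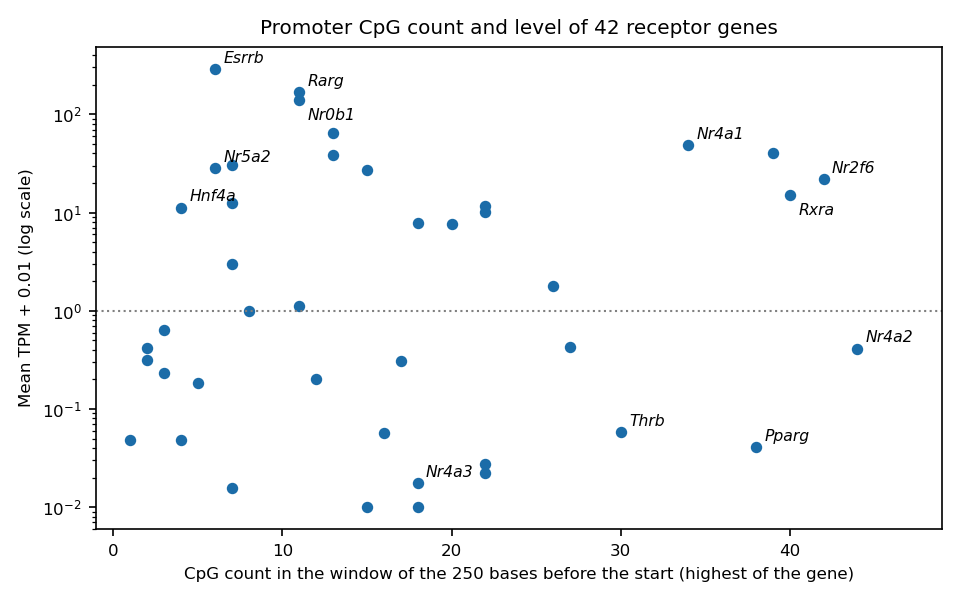
Mean TPM plus 0.01 on a log axis against the CpG count in the 250 bases before the start, each point 1 receptor gene with a promoter window (n = 42), the highest count taken where a gene has several windows; the dotted line marks 1 TPM. Points above and below 1 TPM spread over the same CpG counts, with medians of 13 and 15 for expressed and other genes.

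The difference between the libraries was examined with the exact binomial test, two-sided, on the reads of each gene in B and A over the 18198 genes with 10 reads or more, with Benjamini-Hochberg adjustment at 0.05. Of the 46 receptor genes 35 passed this filter and 0 were called, beside 417 of all genes tested (2.29%), of which 180 (0.989%) were higher in A and 237 (1.30%) higher in B. With 1 library on each side, the test compares these 2 libraries and weighs counting error only; with a coefficient of variation of 0.1 assumed between libraries (edgeR's exact test), 1 of all genes was called. At an unadjusted p under 0.05 there were 7 of the 35 and 12.4% of all genes tested, and the tested receptors had a median of 1200 reads against 924.5. The ratios of the receptors were small: apart from Rxrg, the 23 expressed lay between -0.21 and 0.23 in log2 ratio of B over A.

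The lowest p among the receptors was that of Nr1h2, 84.6 CPM in A against 78.4 in B, which is -0.11 in log2 ratio (exact binomial test, adjusted p = 0.106). Rxrg had the largest ratio of the expressed members, at -0.59 from 90 and 86 reads (adjusted p = 0.149). Nr3c1 had a ratio of 0.23 (adjusted p = 0.147), Ppard -0.14 (0.242), and Rara -0.12 (0.144). None of these passed the test. Nr6a1 had 0.076 (0.223) and Nr4a1 -0.090 (0.359). The 3 most abundant genes were close to equal: Esrrb had a ratio of -0.015 (adjusted p = 0.750 by the exact binomial test), Rarg -0.015 (0.884) and Nr0b1 -0.065 (0.451).

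More receptors were lower in B than higher, 15 of the 23 expressed and 21 of the 35 tested, beside 9162 of all 18198 genes tested. The median log2 ratio was -0.032 over the 35 tested, against -0.00084 over all genes tested. The median transcript GC of the expressed receptors was 54.6%, against 50% for all expressed genes. After removal of the trend of the ratio with GC, 13 of the 23 expressed were lower in B, in part other genes. Esrrb, Rarg, Rxrb and Nr2f6 were then higher in B, and Nr5a2 and Nr2c2 lower. The median log2 ratio of the 23 expressed was -0.032 before this removal and -0.026 after it. Nr4a1, at a log2 ratio of -0.090, stood beside 13 immediate early genes of which 11 of 12 tested were lower in B (median -0.13), with Junb (-0.33, adjusted p = 0.00169) and Jund (-0.32, adjusted p = 5.69e-05) called by the exact binomial test. The most abundant of the list were Ier2, Egr1 and Jund, at 171, 112 and 49.9 TPM. Whether Nr4a1 follows these genes was not tested. Among the feeder fibroblast markers, 10 of 12 tested were lower in B (median log2 ratio -0.26). Dcn, Col3a1, Col1a2 and Postn, each under 1 TPM, were called higher in A by the same test. Over all genes tested 2.29% were called, 0.989% higher in A and 1.30% higher in B, and the test weighs counting error only. With a coefficient of variation of 0.1 assumed between libraries, 1 of all genes was called (above). Of the naive markers, Klf2 was called higher in A and Dppa5a higher in B, at log2 ratios of -0.14 and 0.071. With the GC trend removed, the calls of Junb and Klf2 were lost (exact binomial test, adjusted p = 0.106 and 0.447), while those of Jund, Dppa5a and the 4 fibroblast genes stayed under the threshold. The part of these lists in the receptor ratios was not tested.

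**Figure D4:**
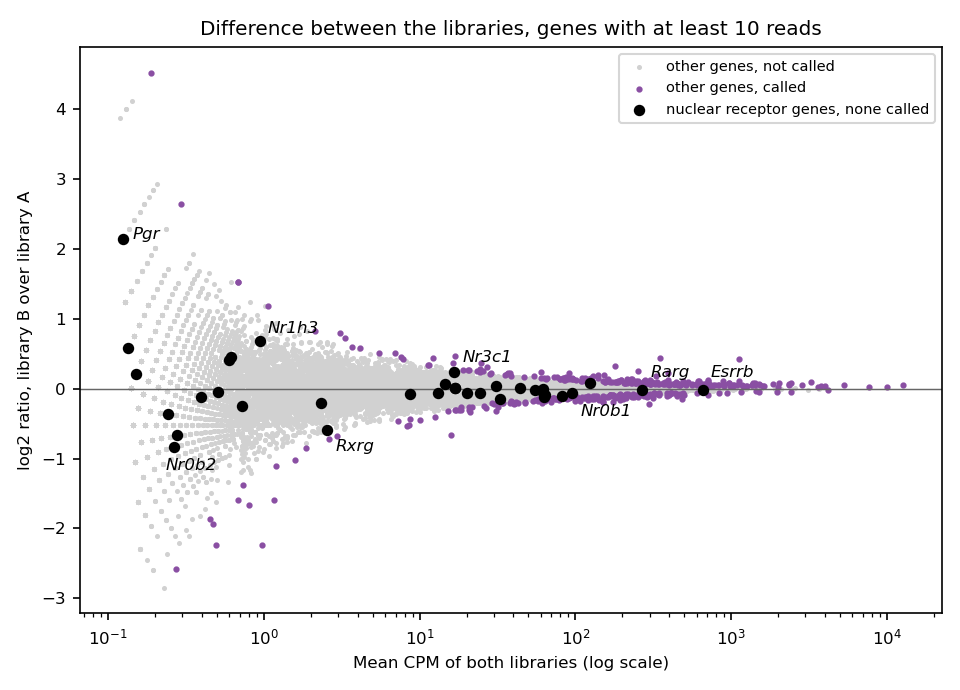
Log2 ratio of library B over library A against the mean CPM of both libraries on a log axis, for all genes tested, with called genes in purple and the 35 tested receptor genes in black. The receptors with high levels lie near 0, and 0 of the 35 were called.

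Genes whose products work with receptors were examined as lists. Of 23 coregulators measured 22 were expressed, with a median of 33.2 ± 2.07 TPM, against 9.47 TPM over all genes tested. The most abundant were Kdm1a, a histone demethylase, at 178 ± 0.023 TPM, Pprc1, a relative of the coactivator Ppargc1a, at 99.4 ± 3.37 TPM, and Carm1, an arginine methyltransferase, at 98.0 ± 3.56 TPM. The 1 not expressed was Ppargc1a, a coactivator of the estrogen-related and Ppar receptors in oxidative tissues, with 1 and 0 reads.

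All 10 chaperones and cochaperones of steroid receptors were expressed, with a median of 407 ± 5.30 TPM, while the steroid receptor genes themselves summed to 6.29 TPM. Hsp90ab1 was at 6843 ± 25.8 TPM, Hsp90aa1 at 1924 ± 29.8 TPM and Fkbp4, the Hsp90-bound immunophilin, at 797.5 ± 13.1 TPM. Hsp90ab1, Hsp90aa1, Ptges3 and Ppid were called higher in B, with log2 ratios of 0.026, 0.050, 0.083 and 0.071, and 0 higher in A. These are 4 of 10, beside 2.29% of all genes tested, but the test weighs counting error only. With 223615 reads in A and 327546 in B, Hsp90ab1 was called at a ratio near 0. With a coefficient of variation of 0.1 assumed between libraries, 1 of all genes was called (above). With the GC trend removed, Hsp90ab1 was still called, and the calls of Hsp90aa1, Ptges3 and Ppid were lost (exact binomial test, adjusted p = 0.111, 0.204 and 0.758). These chaperones serve many other proteins too.

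Of 16 genes of retinoid metabolism and transport 9 were expressed, with a median of 1.22 ± 0.203 TPM, and 0 were called between A and B. The leading genes bind or reduce retinoids in the cell: Crabp1 at 81.3 ± 6.21 TPM, Rdh11 at 34.2 ± 1.04 TPM and Crabp2 at 27.7 ± 0.623 TPM. Cyp26a1, the retinoic acid hydroxylase and a target of the Rar receptors, had 4 and 9 reads, and of the enzymes that make retinoic acid, Aldh1a1 had 1 and 1, Aldh1a3 3 and 11, and Aldh1a2, which was expressed, 71 and 83 (2.59 ± 0.401 TPM). High Rarg RNA was thus measured beside low counts of the 2 target genes in these lists, Rarb and Cyp26a1.

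Among 14 partners of the Rev-erb and Ror receptors in the clock, 12 were expressed, with a median of 9.14 ± 0.254 TPM and 0 called. Bhlhe40, Cry1 and Ciart were highest, at 25.5 ± 0.130, 22.3 ± 0.447 and 16.3 ± 0.691 TPM, all of them repressors of the clock. Per2 had 9 and 10 reads and Npas2 21 and 20, the 2 of the list not expressed. Of 15 sterol and fatty acid genes known to respond to Lxr or Ppar receptors, 14 were expressed, with a median of 23.2 ± 0.383 TPM. Scd2, a desaturase, was at 294 ± 1.35 TPM, Fabp3, a fatty acid carrier, at 222 ± 4.70 TPM, and Acadm, of mitochondrial beta oxidation, at 104.8 ± 0.411 TPM. Srebf1, the lipogenic regulator and a known Lxr target, was called higher in A with a log2 ratio of -0.12 (exact binomial test, adjusted p = 0.0408), and the call was lost with the GC trend removed (adjusted p = 0.633).

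**Figure D5:**
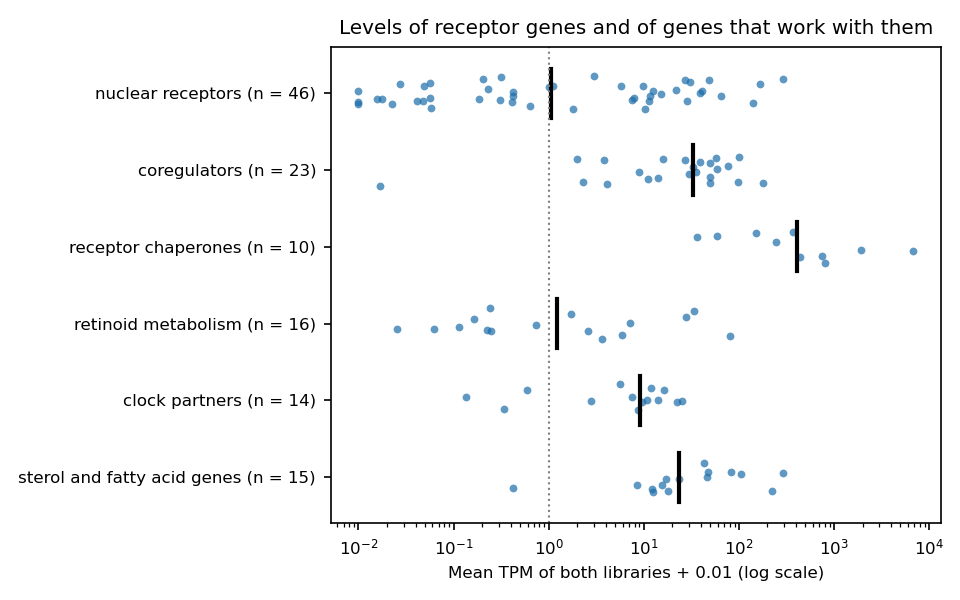
Mean TPM of both libraries plus 0.01 on a log axis, each point 1 gene, for the receptor genes and for the lists of genes that work with them; the dotted line marks 1 TPM. The receptors spread from 0 to nearly 300 TPM, while all 10 chaperones and all but 1 coregulator lie above 1 TPM.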

How the data were processed

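Each deposited file holds, per the file headers, whole-number counts of reads for the Ensembl genes of 1 library, not normalized by the authors. Per the labels' protocols, RNA came from Trizol extraction, and the Illumina TruSeq RNA kit with poly-A selection and a reverse-stranded protocol was used. STAR 2.4.2a, featureCounts 1.4.5-p1 and mm10 appear without roles, per the submitters' processing notes. How strand, multiple matches and the choice of annotation were handled is not stated. Gene symbols, exons and coordinates came from GENCODE M21 on GRCm38, which matched 97.5% of the IDs; the others held 0.163% of the counts.

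TMM scaling (edgeR 4.0.16, R 4.3.3) used genes with at least 10 reads and gave CPM. TPM came from raw counts over exon union lengths, scaled to a fixed sum in each library without TMM. A gene counted as expressed at 1 CPM in both libraries. Genes with at least 10 reads were tested with the exact binomial test (two-sided) and Benjamini-Hochberg adjustment at 0.05, after adding 0.5 reads for the log2 ratio; the test was checked on simulated counts. The p-values weigh counting error only, with no estimate of the spread between libraries. Python 3.11.15, pandas 2.3.3, numpy 2.4.6, scipy 1.17.1 and matplotlib 3.10.9 were used. Every member is accounted for, with values by library for those with 1 CPM in either; of other lists, the 3 most abundant genes and those called were named, and further genes of these lists with few or 0 reads were picked once their values were known. The members and lists were chosen with earlier results of these data known. Prmt1 had no match. Alternatives were other scalings (total counts, DESeq2 1.42.0), filters, thresholds and exon lengths, removal of the GC trend, edgeR's exact test with the coefficient of variation set to 0.1, and each library alone. Proteins were not analysed here, and some results for single genes of the lists are not reported here.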

Additional observations from a re-analysis of the deposited data

How the results depend on the processing

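With 2 libraries of 1 group there is no estimate of the spread between cultures, and levels per length depend on the isoforms assumed. The number of receptor genes expressed was 23, 27 at 0.5 CPM, 21 at 5 CPM, 23 with total counts, DESeq2 size factors or 1 TPM as the threshold, and 23 to 24 in each library alone. In all 6 alternatives run for the comparison of A and B, 0 receptor genes were called, with 1 to 8 at an unadjusted p under 0.05. Over all genes the calls went from 417 to 138 with the GC trend removed and to 1 with edgeR's exact test at an assumed coefficient of variation of 0.1, and were 360 to 441 otherwise. The lowest adjusted p of a receptor lay between 0.0734 (total counts, Nr1h2) and 1.0 (edgeR exact test). Log2 ratios of B over A near 0 changed sign. With the GC trend removed these were Esrrb (0.017), Rarg (0.047), Rxrb (0.051), Nr2f6 (0.025), Nr5a2 (-0.028) and Nr2c2 (-0.0037), and with total counts Nr5a2 (-0.0055) and Esrra (-0.0026). The scalings moved the median of all genes by -0.0073 (total counts) and 0.0035 (DESeq2). With the length of the longest transcript, TPM moved by more than the SD of A and B for 17 of the 24 genes with values by library, and by over 1.5-fold for Ppard (11.6 to 19.0), Nr2c2 (7.83 to 12.4) and Thra (9.73 to 14.8). Esrrb was then at 330.3 TPM, Rarg at 195 and Nr0b1 at 115, and 4 expressed members moved by more than 2 ranks. No paired analysis was possible because both libraries are of 1 group.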

Other observations

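Several receptor genes lie beside each other in the genome (GRCm38), and the neighbours differed in level. On chromosome 11, Thra and Nr1d1 lie on opposite strands with gene spans that overlap by 1075 bases, and Rara starts 152484 bases beyond Nr1d1; all 3 were expressed, at 9.73, 12.6 and 38.7 TPM. Chromosome 14 also has a set of Rar, thyroid hormone receptor and Rev-erb genes, in another order: Rarb, Thrb and Nr1d2. In it the Rar gene is beside the thyroid hormone receptor gene, not the Rev-erb gene. Between Rarb and Thrb lie 841104 bases, and between Thrb and Nr1d2 165963, without overlap. There Nr1d2 was expressed, at 27.2 TPM, while Rarb and Thrb had 7 and 10 reads over both libraries. The order of levels within the set thus differed between the chromosomes: Rara led on chromosome 11 and Nr1d2 on chromosome 14.

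On chromosome 2, Nr5a1 and Nr6a1 lie 8827 bases apart on the same strand. Nr6a1 was at 30.5 TPM and Nr5a1 at 3 and 2 reads. Nr5a1 and Nr5a2 are close relatives that bind the same DNA element, and Nr5a2 held 99.8% of their summed TPM.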
